A study of Mus musculus with 4 samples.

Results

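Barcodes of day-1 mouse skin wounds were chosen because they held UMIs (molecule counts) of genes known from neutrophils. A barcode was a member if it came from a wounded library, had at least 100 genes and at most 5% mitochondrial UMIs, and held at least 1 UMI of at least 2 of 10 gate genes: Trem3, Cd300lf, Csf3r, Cxcr2, Clec4d, Trem1, S100a8, S100a9, Il1b and Slfn4. There were 345 members (147 in wounded replicate 1 and 198 in wounded replicate 2) among the 37499 barcodes of all 4 libraries that passed the same limits on genes and mitochondrial UMIs. They are called gated barcodes here, because 8 of 30 neutrophil genes outside the gate had no UMI in each library, and barcodes with markers of other cell types passed the gate too, as given below. The gate genes chose the members, so their levels are a description. They stay in the fits and in the shares of genes called, but their calls follow from the choice and are not results.

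The study applied single-nucleus RNA sequencing to the back skin of 8-week-old C57BL/6 mice, all wild type. Skin of 2 mice was left unwounded, and 2 mice had full-thickness excisional wounds that were collected 1 day later. Each mouse gave 1 library, so the number of replicates is 2 per group. Nuclei came from whole minced tissue, with no sort for any cell type.

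Neutrophils are the first leukocytes to enter a skin wound in large numbers. They arrive from blood along chemokine gradients sensed by receptors such as Cxcr2, adhere through integrins, and release granule proteins and oxidants that act on microbes and matrix. Csf3r is the receptor for the growth factor that drives their production, Trem3 and Cd300lf are immunoglobulin-like receptors of myeloid cells, and S100a8 and S100a9 form a calcium-binding complex that fills the neutrophil cytosol. Granule protein genes are mostly transcribed in the bone marrow, before the cell enters the tissue.

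The wounded libraries were shallow. Gated barcodes had a median of 277 UMIs in replicate 1 and 247.5 in replicate 2, against 235 and 167 in the other wounded barcodes and 906 and 469 in all barcodes of unwounded replicates 1 and 2. Together the gated barcodes held 88498 and 73641 UMIs, so a gene with no UMI could still lie at up to 33.9 and 40.7 CPM (UMIs of a gene per 1e6 UMIs of the class). A few deep barcodes carried much of this: 21 and 10 barcodes with at least 1000 UMIs held 53.0% and 22.4% of the UMIs. Wounded replicate 2 had far more barcodes than replicate 1, with 16075 passing against 4621. The wounded libraries shared 26 cell barcode sequences, none of them inside the gate.

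All barcodes of the wounds, gated or not, stood apart from intact skin in their RNA. Malat1, a nuclear non-coding RNA that is normally among the most abundant in nuclei, made up 0.0746% and 0.285% of UMIs in gated barcodes and 9.37% and 8.23% in unwounded skin. Olfactory and vomeronasal receptor genes, which skin is not known to express, summed to 7537 and 5907 CPM in gated barcodes and to 94.4 and 132 CPM in unwounded skin. At matched UMI totals other wounded barcodes had 8171 and 6383 CPM of these receptor genes, above the gated barcodes in both libraries. The part of these signals in the results below was not tested.

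Trem3 and Cd300lf did most of the choosing. Trem3 had a UMI in 79.6% and 65.2% of gated barcodes, Cd300lf in 79.6% and 70.2%, and both together in 61.9% and 41.4%. Csf3r had a UMI in 27.9% and 31.3% and S100a9 in 8.84% and 13.1%, while Cxcr2 was seen in 4 and 5 barcodes and S100a8 in 3 and 6. Most members lay at the edge of the rule, since 135 and 190 held exactly 2 gate genes, 11 and 8 held 3, and 1 and 0 held more. Just outside it, 904 and 2339 wounded barcodes held exactly 1 gate gene. At the limit on genes, 0 and 17 members had 100 to 109 genes, and 0 and 11 barcodes with 2 gate genes had 90 to 99.

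The gate was passed by 3.18% of wounded barcodes in replicate 1 (95% Wilson interval 2.71 to 3.73) and 1.23% in replicate 2. In unwounded skin it was passed by 1 of 6964 and 0 of 9839 barcodes, the latter allowing a share of up to 0.0305%. With every barcode thinned to 200 UMIs, which left out shallower ones, the shares were 1.39% (41 of 2955) and 0.966% in wounds and 0 in both unwounded libraries. No test was run on these shares, because the smallest p of an exact permutation test between 2 and 2 libraries is 0.33. Wounded barcodes that held at least 2 keratinocyte markers passed the gate in 3.10% and 1.33% of cases, at median depths of 266 and 232 UMIs, which is close to the share over all barcodes. Those with at least 2 fibroblast markers passed it in 5.26% and 5.19%, at 310 and 260 UMIs. Barcodes with at least 2 skeletal muscle markers passed it in 13.5% (5 of 37) and 13.7% (7 of 51), at 1174 and 294 UMIs, and those with at least 2 macrophage and monocyte markers in 9.43% (5 of 53) and 5.17% (3 of 58), at 808 and 417.5 UMIs. Thinned to 200 UMIs, these classes passed in 0 of 96 and 1 of 230 barcodes for keratinocyte markers, 0 of 60 and 0 of 92 for fibroblast markers, 0 of 36 and 3 of 42 (7.14%) for muscle markers, and 0 of 51 and 2 of 50 for macrophage markers. The upper Wilson bounds were 3.85% and 2.42%, 6.02% and 4.01%, 9.64% and 19.0%, and 7.0% and 13.5%. Thinned to 200 UMIs, shares for keratinocyte and fibroblast markers lay below those over all wounded barcodes in both libraries. Those for muscle and macrophage markers did so in replicate 1 only. All the bounds at 200 UMIs lie above the shares over all wounded barcodes, but they are wide because the classes are small. Thinned to 400 UMIs, the shares over all wounded barcodes were 2.045% and 1.695%. Barcodes with keratinocyte markers then passed in 0 of 31 and 4 of 72 (5.56%). The counts were 0 of 31 and 0 of 33 for fibroblast markers and 0 of 27 and 1 of 22 for muscle markers. For macrophage markers they were 1 of 36 (2.78%) and 0 of 29. Thinning therefore cannot decide whether these classes pass less often. The share inside the gate is not read as a share of neutrophils, because barcodes with markers of other cell types passed it as counted. Intervals and limits cover counting error only.

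Neutrophil genes outside the gate were few and sparse in the gated barcodes. Of 30 such genes, 8 had no UMI in each library, and Ly6g, Lcn2, Fpr2 and Ccrl2 had none in either. The list summed to 1243 and 923 CPM in gated barcodes, 834 and 747 CPM in other barcodes of matched UMI total, and 823 and 811 CPM in all other wounded barcodes. The sums were higher inside the gate in both libraries. In the test against all other barcodes described below, 17 of the 30 genes had enough counts, and 0 passed, with a median log2 fold change of 0.22 against -0.11 over all genes tested. Of all genes tested 0.155% passed in either direction, so a count of 0 in 17 does not set the list apart.

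Itgam had the most UMIs of the list. This gene, the alpha chain of the integrin Mac-1, was at 339 and 204 CPM in gated barcodes (30 and 15 UMIs) against 228 and 171 in all others, with a log2 fold change of 0.32 ± 0.24 (SE) and an adjusted p of 0.9996 by edgeR's quasi-likelihood test. It was higher inside the gate in each library, by a difference that did not pass the test. Padi4, the enzyme that citrullinates histones in neutrophil extracellular traps, had 8 and 6 UMIs (90.4 and 81.5 CPM against 63.2 and 67.8). Sorl1, a sorting receptor, had 10 and 4 UMIs (113 and 54.3 CPM against 63.8 and 66.6), so the libraries lay on opposite sides of the other barcodes. The granule protein list of 15 genes had only 16 and 8 UMIs, or 181 and 109 CPM, against 164 and 177 CPM at matched UMI totals. The list of 6 NADPH oxidase genes had 23 and 10 UMIs, against 9 and 5 at matched UMI totals. These sums were 260 and 136 CPM inside the gate, 106 and 67.9 CPM in matched barcodes, and 111 and 107 CPM in all others. The UMIs inside the gate were spread unevenly, with 2 and 2 from Cybb, 3 and 1 from Ncf1 and 2 and 0 from Ncf4. The higher sums are therefore not a rise shared by the whole list.

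**Figure D1:**
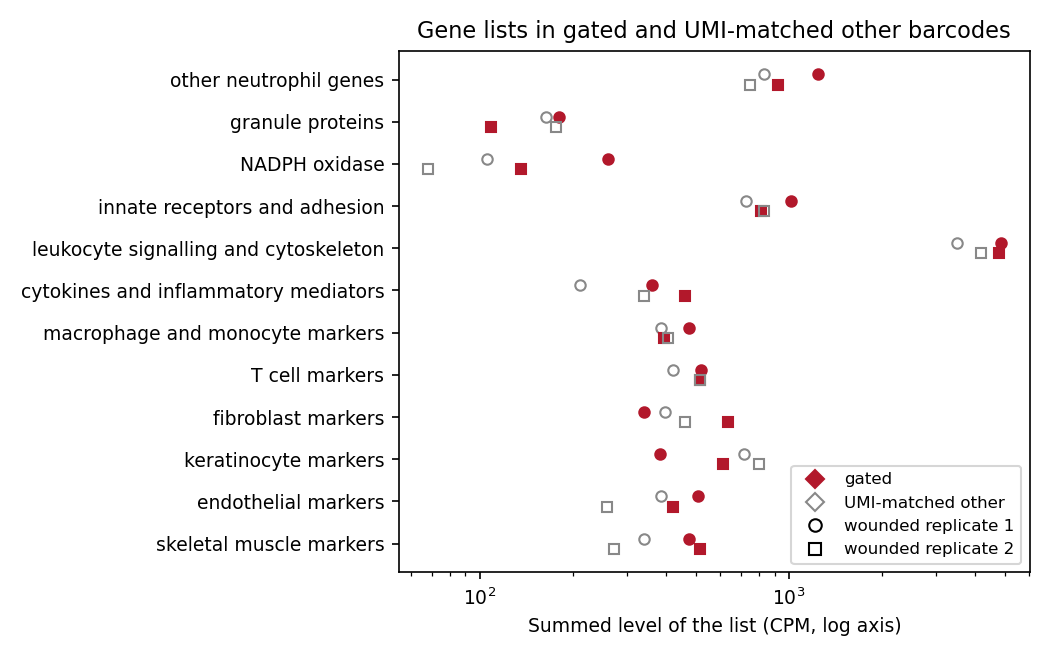
Summed level of 12 gene lists (CPM, log axis) in gated barcodes (red, filled) and in other wounded barcodes of matched UMI total (grey, open), with circles for wounded replicate 1 and squares for wounded replicate 2. The other neutrophil genes lie at 1243 and 923 CPM in gated barcodes against 834 and 747, and keratinocyte markers at 384 and 611 against 716 and 801.

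Markers of other cell types were present in the gated barcodes, some lists above and some below the level at matched UMI totals. The 11 macrophage and monocyte markers summed to 475 and 394 CPM, against 387 and 408 at matched UMI totals, and 4 and 5 of the 11 had no UMI. Macrophage-like barcodes, chosen by 10 of these 11 genes and therefore high in them, were at 2019 and 4334 CPM. The 8 fibroblast markers summed to 339 and 638 CPM against 399 and 462, with the libraries in opposite order. The 6 skeletal muscle markers were at 475 and 516 CPM against 340 and 272 and the 5 endothelial markers at 508 and 421 against 387 and 258, higher inside the gate in both libraries. Of the 42 and 38 muscle marker UMIs inside the gate, Neb gave 29 and 11 and Ttn 11 and 17. Of the 6 muscle markers 3 and 1 had no UMI. The 10 keratinocyte markers were at 384 and 611 CPM against 716 and 801, lower in both. The part of these markers in the results was not tested. Only 5 and 3 gated barcodes also held 2 genes of the macrophage gate.

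The first comparison asked which genes differed between gated barcodes and all 20351 other wounded barcodes. UMIs were summed per library and class, and the library was kept as a block, since both sums came from the same animal. No gene outside the gate was called higher. The 14 called lower included Far2, Trim63, Trp63 and the nuclear RNAs Malat1 and Neat1. Of 14189 genes tested, 0.155% passed an adjusted p of 0.05 in either direction by edgeR's quasi-likelihood test. All 8 genes called higher (0.0564%) were gate genes. Among the others, 208 were higher at an unadjusted p under 0.05, DESeq2 called 0 (20 at an unadjusted p under 0.05), and the 14 lower genes were 0.0987% of those tested. DESeq2 called 0 lower (32 at an unadjusted p under 0.05), and edgeR without its legacy dispersions called 0 in either direction, gate genes included (281 higher and 327 lower at an unadjusted p under 0.05).

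Far2 had the smallest p among the falls, followed by Trim63 and Trp63. Trp63, the transcription factor that maintains basal keratinocytes, was at 226 and 190 CPM in gated barcodes and 437 and 520 CPM in the others. It was lower inside the gate in each library, with a log2 fold change of -1.31 ± 0.24 (SE, edgeR adjusted p = 0.000213). Trim63, a ubiquitin ligase of muscle atrophy, was at 33.9 and 95.1 CPM against 219 and 322, a log2 fold change of -2.24 ± 0.36 (edgeR adjusted p = 4.91e-06). Far2, a fatty acyl-CoA reductase, was at 147 and 54.3 CPM against 392 and 302, a log2 fold change of -1.88 ± 0.30 (edgeR adjusted p = 4.23e-06). Both genes were lower inside the gate in each library, from 3 and 7 UMIs of Trim63 and 13 and 4 of Far2. Myl1, a myosin light chain of fast muscle, had 0 UMIs in replicate 1, against 206 CPM in the others, and 54.3 CPM in replicate 2 against 89.2. Its log2 ratio was -0.55 in replicate 2 alone. Trim63 and Myl1 are outside the list of 6 skeletal muscle markers, which summed to 475 and 516 CPM inside the gate and 353 and 388 CPM in all other barcodes, and of which 0 of 5 tested were called.

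The nuclear RNAs, Tnfaip6 and Tgfbr3 were also lower. Malat1 was at 746 and 2852 CPM in gated barcodes against 1840 and 3563 CPM in all others, a log2 fold change of -0.84 ± 0.17 (edgeR adjusted p = 0.00132). Neat1, the RNA scaffold of paraspeckles, was at 79.1 and 81.5 CPM against 174 and 276. Tnfaip6, a secreted hyaluronan-binding protein of inflamed tissue, was at 384 and 435 CPM against 764 and 604, and Tgfbr3, the TGF-beta co-receptor betaglycan, at 678 and 1249 CPM against 1526 and 1455. All 4 were lower in each library. Against other barcodes of matched UMI total the gap in Malat1 was small, at 746 and 2852 CPM inside and 822 and 2907 outside. Of the 14 genes, 7 had enough counts to be tested with 1 matched barcode for each gated one, 5 of those were still lower, and 0 passed. With 5 matched barcodes for each gated one all 14 were tested and lower, and 0 passed. The remaining 6 genes that fell were D5Ertd579e, Dsg3, Dsc3, Cntfr, Bbs7 and Cyp7b1, named outside the rule for named genes after their values were seen. Dsg3 and Dsc3 are desmosomal cadherins of keratinocytes.

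Depth differed between the classes, so the second comparison set each gated barcode against 1 other barcode of the same library with the nearest UMI total. This was one of the alternatives listed for the first comparison, and the genes it called lie outside the rule for named genes and were chosen after their values were seen. In the gated barcodes 13 genes outside the gate were higher, of which 12 are described here: App, Ptprj, Tgfbi, Tfec, Gpr141, Tarm1, Pid1, Alcam, Alpk1, Cass4, Basp1 and Gas7. With 4 gate genes the 13 made up the 1.04% called higher of 1632 genes tested, and 1.23% were called in either direction. Against all other barcodes the 12 genes had log2 fold changes of 0.20 to 0.79, and 0 of them passed. With DESeq2 at matched depth 2 of the 13 passed, App among them, and with the gate limited to its 6 receptor genes 0 passed, nor did any gate gene.

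Receptors and surface proteins among the 12 genes included Tarm1, Gpr141, Ptprj and Alcam. Tarm1 (ENSMUSG00000053338, chr7:3486500-3502624 of GRCm38, minus strand), an activating immunoglobulin-like receptor of myeloid cells, was at 328 and 177 CPM (29 and 13 UMIs) in gated barcodes against 70.4 and 54.3 CPM in matched ones, a log2 fold change of 2.00 ± 0.45 (edgeR adjusted p = 0.00527). Gpr141, an orphan G protein-coupled receptor, was at 486 and 489 CPM against 153 and 204. Ptprj, a receptor tyrosine phosphatase of leukocytes and other cells, was at 2463 and 2526 CPM against 1268 and 1345. For each of these receptors the gated sum was above the matched sum of its own library. Alcam, an adhesion protein that binds CD6, was at 983 and 910 CPM against 505 and 503.

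The other genes cover membrane, secreted, nuclear and signalling proteins. App (ENSMUSG00000022892, chr16:84949685-85173766, minus strand), the amyloid precursor protein, was the most abundant of the 12, at 3831 and 3245 CPM in gated barcodes (339 and 239 UMIs) against 1280 and 1725 CPM in matched ones. Its log2 fold change was 1.26 ± 0.15 (SE, edgeR adjusted p = 5.71e-09), and it was higher inside the gate in each library. Tgfbi, a matrix protein induced by TGF-beta, was at 2260 and 2757 CPM against 1104 and 1575. Tfec, a transcription factor of the MiT family found in macrophages, was at 350 and 462 CPM (31 and 34 UMIs) against 117 and 95.1, a log2 fold change of 1.90 ± 0.34 (edgeR adjusted p = 0.000184). Alpk1, a kinase that senses a bacterial sugar nucleotide, was at 904 and 1372 CPM against 505 and 774. Both Tgfbi and Tfec are known from monocytes and macrophages, whose marker list was at 475 and 394 CPM in gated and 387 and 408 CPM in matched barcodes.

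The log2 ratio was larger in replicate 1 for all 4 of Cass4, Basp1, Gas7 and Pid1, with the widest gap in Cass4. Cass4, an adaptor of the Cas family, was at 373 and 217 CPM against 58.7 and 163, with log2 ratios of 2.55 in replicate 1 and 0.40 in replicate 2. Basp1, a membrane-bound signalling protein, was at 362 and 163 CPM against 82.2 and 109, with log2 ratios of 2.06 and 0.56. In replicate 2 these rest on 16 against 12 UMIs and 12 against 8. Gas7, which organises actin, was at 734 and 774 CPM against 317 and 489, and Pid1, an adaptor that binds phosphotyrosine motifs, at 994 and 1168 against 528 and 638. Their log2 ratios were 1.20 and 0.66 for Gas7 and 0.90 and 0.86 for Pid1. Both Gas7 and Pid1 were higher inside the gate in each library.

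**Figure D2:**
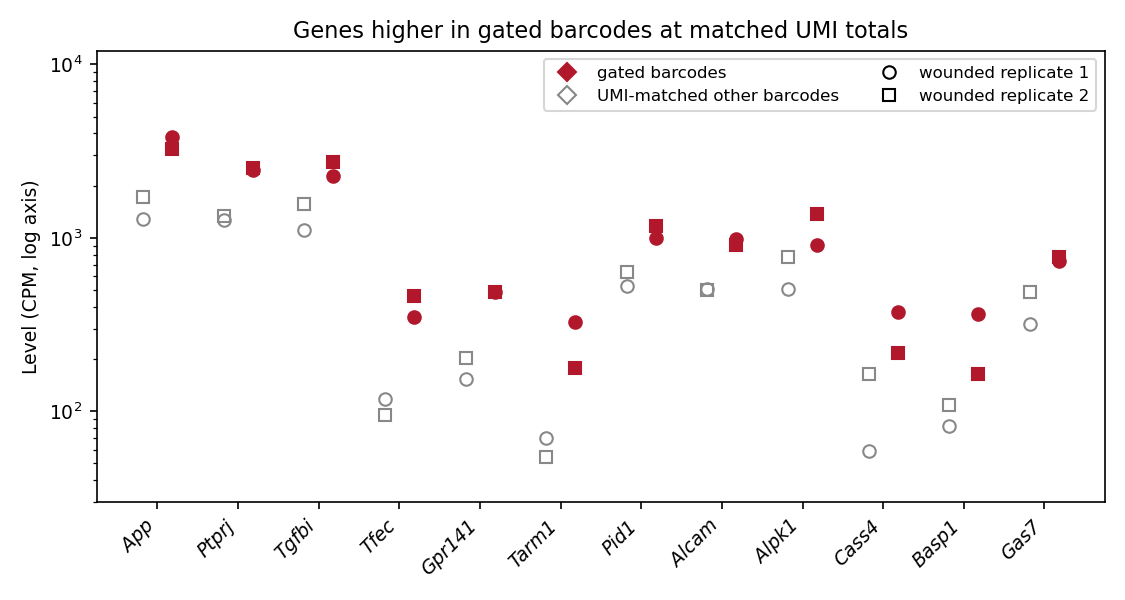
Levels (CPM, log axis) of 12 genes higher in gated barcodes (red, filled) than in other wounded barcodes of matched UMI total (grey, open), with circles for wounded replicate 1 and squares for wounded replicate 2. App is the most abundant, at 3831 and 3245 CPM against 1280 and 1725, and the gated sum is above the matched sum of its own library for each gene.

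At matched depth 3 genes were lower, 0.184% of those tested. The most abundant were the gene models Gm10800 and Gm10801, whose levels in gated barcodes were the highest of the genes named here: Gm10801 was at 19620 and 17060 CPM in gated barcodes against 26680 and 23170, a log2 fold change of -0.44 ± 0.08 (SE, edgeR adjusted p = 0.000154). Gm10800 was at 7921 and 8175 CPM against 11330 and 10400. Oxr1, an oxidation resistance gene, was at 158 and 109 CPM against 329 and 340. In all 3 the gated sum lay below the matched sum of its own library.

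**Figure D3:**
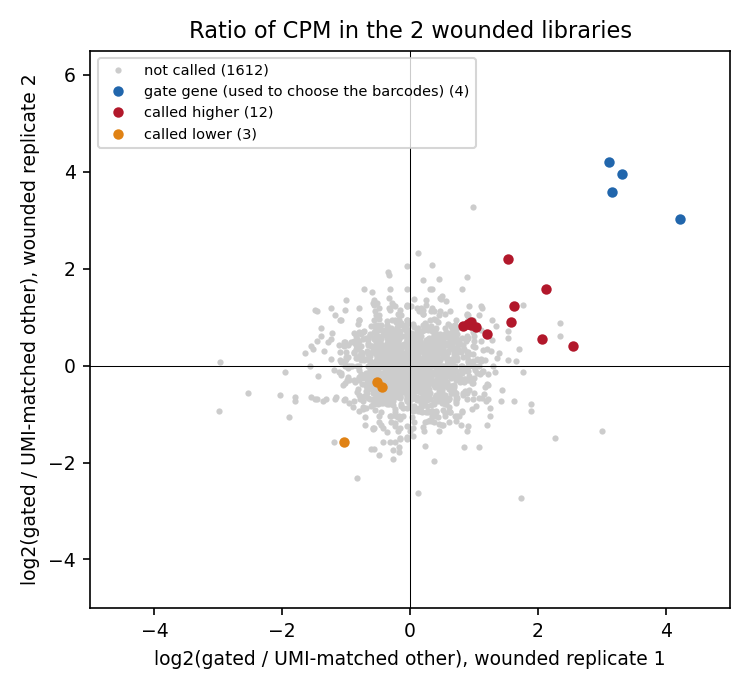
Log2 ratio of CPM between gated and UMI-matched other barcodes in wounded replicate 1 (x axis) and wounded replicate 2 (y axis) for the genes tested, with colours for the 4 gate genes, 12 genes called higher, the 3 called lower and the rest. The 12 lie right of and above 0 in both libraries, and Cass4, at 2.55 and 0.40, is the one with the smallest ratio in replicate 2.

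The summed level of the 12 genes, chosen from this contrast and therefore given without a test, varied with depth and with the number of gate genes. It was 14070 and 14260 CPM in gated barcodes, 5987 and 7674 in matched ones, 9921 and 10580 in all other wounded barcodes, and 3374 and 3593 in unwounded skin. Gated barcodes under 500 UMIs were at 31080 and 16220 CPM and those with 500 or more at 7078 and 12270. Other barcodes moved the same way, from 13560 and 11330 CPM to 4867 and 6379. Among barcodes with at least 150 and under 500 UMIs the sum was 11790 and 10790 CPM with 0 gate genes, 20420 and 12410 with 1, and 31090 and 16030 with 2 or more. The order was the same in both libraries and the steps were larger in replicate 1. Below 1000 UMIs, with matching repeated, 16 genes outside the gate were called higher, of 848 genes tested with gate genes included. Among them were 10 of the 11 of these 12 that could be tested. That fit reused 126 of the 147 and 188 of the 198 gated barcodes that chose the 12 genes, so it is not separate support.

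**Figure D4:**
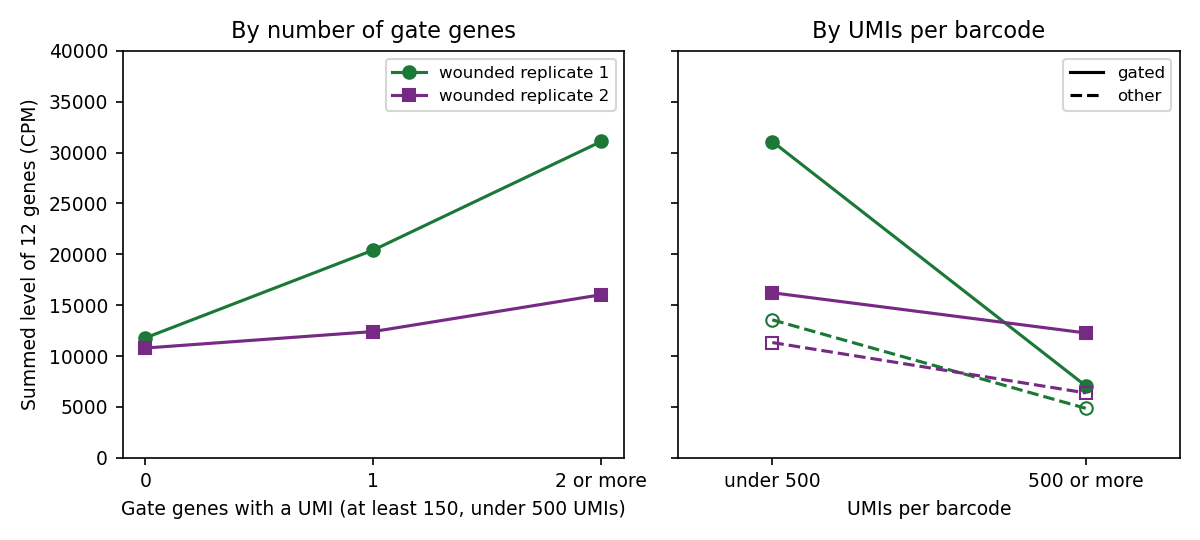
Summed level of the 12 genes (CPM) by number of gate genes among barcodes with at least 150 and under 500 UMIs (left) and by UMIs per barcode in gated (solid lines) and other barcodes (dashed lines, right), in wounded replicate 1 (green circles) and wounded replicate 2 (purple squares). The level rises from 11790 to 31090 CPM with gate genes in replicate 1 and from 10790 to 16030 in replicate 2, and is lower at 500 or more UMIs in both classes.

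Promoters of the called genes did not hold 2 binding motifs of myeloid transcription factors. RefSeq promoters (GRCm38.p6, 250 bases before to 50 after the start) were found for 11 of the 12 genes and searched on both strands for GAGGAAGT, a form of the PU.1 site, and TTGCNNAA, a form of the C/EBP site. Neither was present in any of the 11, while 3.2% and 10.8% of all 32851 promoters held them. No match says only that these letters are not in the window.

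The third comparison set gated barcodes against the 101 macrophage-like barcodes of the wounds, which held at least 2 of 10 macrophage genes and were outside the neutrophil gate. Outside both gates 14 genes were higher and 3 lower, with 1.85% of 1240 genes called in either direction, 1.37% higher and 0.484% lower, gate genes included. The gate genes of each class differed as chosen and are not results. The macrophage-like barcodes were deeper, with median UMIs of 732 and 417.5. After gated barcodes were matched to them by UMI total, 590 genes were tested, gate genes included, and 0 outside the gates passed in either direction by edgeR (12 higher and 17 lower at an unadjusted p under 0.05). DESeq2, without matching, also called 0, with 9 higher and 1 lower at an unadjusted p under 0.05.

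Cyp7b1, an oxysterol hydroxylase, was higher, at 610 and 706 CPM in gated and 189 and 152 CPM in macrophage-like barcodes, a log2 fold change of 1.88 ± 0.40 (edgeR adjusted p = 0.000327). Cyp7b1 was one of the 14 genes lower in gated than in all other barcodes, so its direction differed with the reference class. With 1 matched barcode for each gated one, the means over the 2 wounded libraries were 658 ± 67.8 CPM inside the gate and 664.5 ± 557.9 CPM outside (SD). The 2 matched sums lay too far apart for these means to say whether Cyp7b1 fell. With 5 matched barcodes for each gated one it was lower, as were all 14 genes, and 0 of the 14 passed. Cyfip1, a regulator of actin branching, was at 814 and 760 CPM against 245 and 342. Tfec was at 350 and 462 CPM against 94.3 and 76, Tgfbi at 2260 and 2757 against 981 and 1292, and Alpk1 at 904 and 1372 against 208 and 988. These comparisons share the gated sums with the matched comparison above. The genes lower in gated barcodes were Tmtc2 (170 and 122 CPM against 415 and 532), Vgll4, a cofactor of TEAD transcription factors (79.1 and 40.7 against 226 and 418), and Nckap5 (429 and 448 against 962 and 722).

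A count of 0 calls does not set the other gene lists apart, since only 0.155% of all genes were called against all other barcodes. Against all other barcodes, 0 of 17 tested innate receptor and adhesion genes, 0 of 4 NADPH oxidase genes, 0 of 10 cytokine and mediator genes, 0 of 9 myeloid transcription factors, 0 of 26 leukocyte signalling and cytoskeleton genes, 0 of 13 hypoxia and glycolysis genes, 0 of 9 interferon-stimulated genes and 0 of 8 cell death and survival genes passed in either direction. Their median log2 fold changes ran from -0.32 for cell death genes to 0.66 for NADPH oxidase, against -0.11 for all genes tested. Among cell type markers the single call was Trp63, in the keratinocyte list of 6 tested genes, whose median was -0.82. With 5 matched barcodes for each gated one, 2 of 21 leukocyte signalling and cytoskeleton genes were higher, against 0.363% of all 5783 genes called higher, 0.0519% lower and 0.415% in either direction.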

How the data were processed

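Files held whole-number UMI counts for each gene in each barcode, deposited by the authors as unnormalised matrices and produced with Cell Ranger 5.0.1 on the GRCm38 build, per the submitters' processing notes. The calling of barcodes and the treatment of introns were not given in the sources used here. Barcodes needed 100 genes and no more than 5% mitochondrial UMIs, and no doublet caller was run. Counts of the 2 wounded libraries were summed per class and tested with edgeR 4.0.16 (R 4.3.3): filterByExpr, TMM, glmQLFit with the library as a block, Benjamini-Hochberg adjustment over all genes tested, threshold 0.05. With 4 sums 1 residual degree of freedom is left, so calls lean on the spread shared across genes. The pairing comes from both classes being in 1 library; their deviations correlated at 0.0753 at matched depth. Alternatives included DESeq2 1.42.0 and barcodes matched by UMI total. The wounded libraries differed by more than sampling noise (chi-square per gene 2.57). Code was tested on simulated data. Coordinates are from GENCODE vM21 (GRCm38), and no genome sequence was aligned to.

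The rule for named genes took up to 12 rises and 8 falls of smallest p against all other barcodes, up to 6 members per list, neutrophil genes with at least 5 UMIs, and up to 6 genes per direction against macrophage-like barcodes. It required at least 10 UMIs in the higher class and left out gene models. Members and lists were chosen with earlier results of these data known. A few single genes are not reported here; they stay in the fits and in counts of calls.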

Additional observations from a re-analysis of the deposited data

How the results depend on the processing

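Counts of called genes outside the gates depended on the settings. Against all other barcodes, 0 were higher, 1 with RLE size factors, 13 with UMI-matched others and 16 with 5 matched barcodes for each gated one. Lower genes numbered 14, and 27 with no filter, 0 with DESeq2, 3 with no replicate block, 30 with at least 3 gate genes, 1 with at least 200 genes per barcode, 3 with either matching and 0 with edgeR without legacy dispersions, which called no gate gene either. With at least 3 gate genes only 12 and 8 barcodes remained and the median log2 fold change was -7.27; in that fit 0 of the 12 named genes higher at matched depth were positive. Against UMI-matched barcodes the 13 higher genes became 2 with DESeq2, 5 with RLE size factors and 0 with receptor genes only, and the 3 lower genes became 0 with DESeq2, 0 with receptor genes only and 1 under 1000 UMIs; no replicate block gave 13 higher and 2 lower. Against macrophage-like barcodes the 14 higher genes became 6 with no filter, 0 with DESeq2, 2 with no replicate block, 2 with at least 3 gate genes, 7 with at least 200 genes and 0 after matching by UMIs. The 3 lower became 0 with no filter, with DESeq2, with no replicate block, with at least 3 gate genes and after matching, and 1 with at least 200 genes. The mean share inside the gate, 2.21% in wounds and 0.00718% in unwounded skin, was 0.155% in wounds with at least 3 gate genes; leaving out a replicate gave 1.23% to 3.18% and 0 to 0.0144%. With 1 matched barcode for each gated one, Tnfaip6 (0.10) and Cyp7b1 (0.10) changed sign. With 5 for each gated one, all 14 genes lower in the first comparison stayed lower. Cmss1 (-0.24) changed sign against macrophage-like barcodes with at least 3 gate genes. At matched depth the 12 named genes were all positive in each library alone. They were chosen from the sums of these same 2 libraries, so this is not separate support. Matching with DESeq2, RLE, no block, receptor genes only, under 1000 UMIs, 5 to 1 or without legacy dispersions, and matching to macrophage-like barcodes, were chosen after seeing the data. The cause of these changes was not tested. Counts per class, with no UMI allowing up to 33.9 and 40.7 CPM, limit what could be detected.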
